A study of Mus musculus with 4 samples.

Results

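The tripartite motif (TRIM) family is described here in the cytosolic RNA of mouse macrophages that met lipid A, the membrane anchor of bacterial lipopolysaccharide, on 2 occasions. Members were the annotated genes named Trim with a number, with or without a letter, that had at least 1 protein-coding transcript. They came to 68 of 55536 annotated genes, or of 22028 protein-coding genes. The macrophages were grown from the bone marrow of C57BL/6J mice, held for 12 h with 100 ng/ml lipid A, kept without it for another 12 h after a wash, and given 100 ng/ml again for 15 min. The 4 libraries were labelled biological replicates of this single condition, 1 donor record was named for all 4, and no untreated or once-treated cells were among them, so levels within the family were compared and no response to lipid A was measured. Nothing in the labels says that the replicates came from separate animals, so the p-values measure only the spread between these libraries.

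Most TRIM proteins carry an amino-terminal RING finger, with which they can pass ubiquitin from an E2 enzyme to a target. B-box zinc fingers and a coiled coil follow. TRIM proteins are sorted into classes by the carboxy-terminal domain, which binds the target, and the largest class carries a SPRY domain. Several members act in innate immunity: some tag sensors of foreign nucleic acid or their adaptors, some bind viral particles, some hold back NF-kappaB signalling in macrophages, and many are known interferon-induced genes. Other members silence chromatin, build muscle, shape neurons or act in germ cells.

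Levels are given as deposited TPM, a length-adjusted measure with a fixed total in each library, which can be compared between genes of a library. Of the 68 members, 48 reached 10 expected counts when the 4 libraries were added up and were tested one-sided against the level of 1 TPM with limma on log2(TPM + 0.1), with p-values adjusted over all 16262 genes tested. In this test 30 members were above 1 TPM, 13 were below it and 5 were on neither side. The 30 members above were 62.5% of the members tested, against 58.2% of all genes tested and 71.2% of the protein-coding genes. The 13 below were 27.1% of the members tested, against 35.1% of all genes and 22.4% of the protein-coding genes. The median of the tested members was 2.81 TPM, against 4.85 TPM for tested protein-coding genes and 2.72 TPM for all tested genes. Members of at least 10 TPM numbered 15, which is 31.3% of the members tested, against 33.3% of the tested protein-coding genes. After each library was rescaled to its protein-coding genes, 39 members were above 1 TPM (81.2% of those tested), against 67.8% of all genes and 80.7% of the protein-coding genes. On that scale 8 members were below (16.7%), against 21.2% of all genes and 12.9% of the protein-coding genes. As deposited, the family's shares above and below 1 TPM and its median lay between those of all genes and those of protein-coding genes. Rescaled, its share above 1 TPM was close to that of protein-coding genes. Members ranged from 0 to 117 TPM as deposited.

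**Figure D1:**
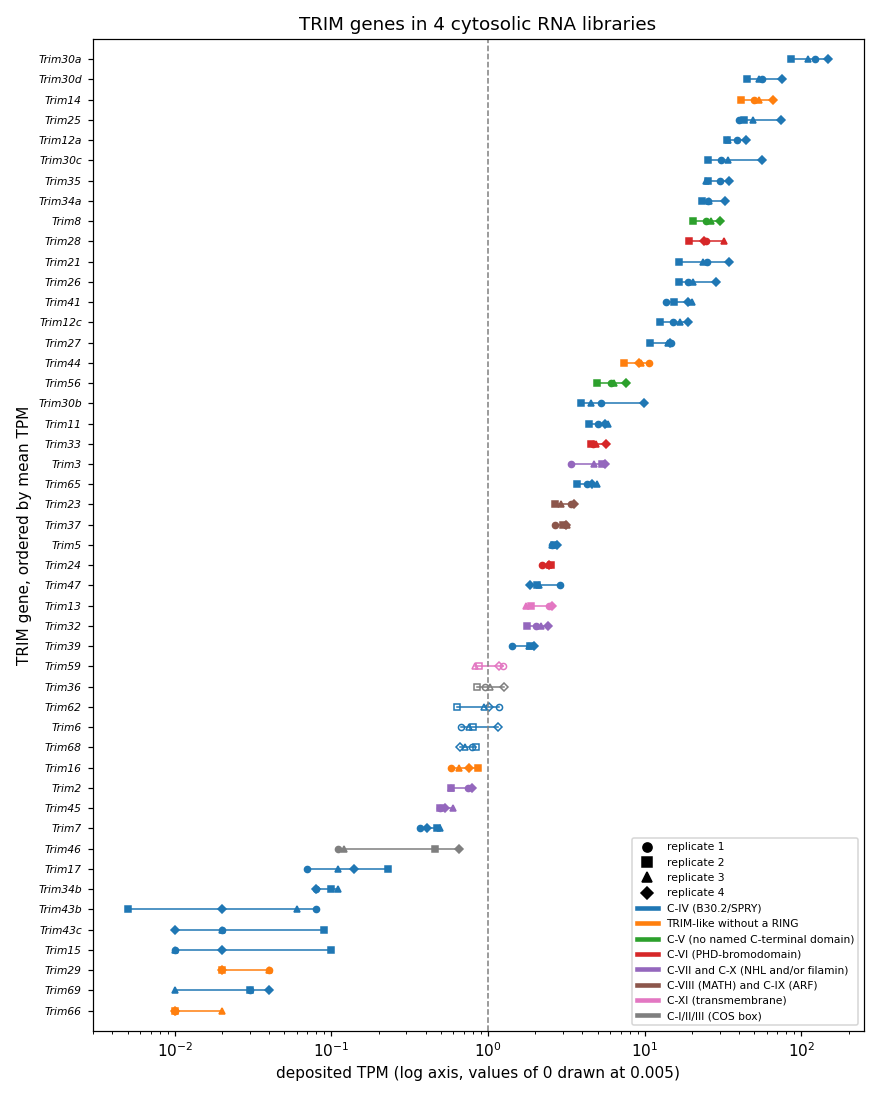
Deposited TPM (log axis) of the 48 TRIM genes tested, with 1 marker for each of the 4 libraries, a line over their range and colours for the structural class. Open markers are genes on neither side of 1 TPM (dashed line). Trim30a, at 86.2 to 149 TPM, lies right of every other gene.

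Short promoter stretches are shown for the 8 members of at least 1 TPM whose window holds a pair of GAAA repeats, the core letters of interferon-stimulated response elements. Promoter windows of 300 bases, from 250 bases before a RefSeq start to 50 after it, came from the RefSeq annotation of GRCm38.p6, the build that mm10 names, and 53 members had 67 windows. The promoters of Trim14, Trim35, Trim8, Trim11, Trim33, Trim3, Trim65 and Trim36 were not analysed here. The motif GAAA NN GAAA, in which N is any base, searched on both strands, lay in the windows of 9 of the 53 members (17.0%), against 3.99% of all 27025 genes with a window. Members of at least 1 TPM with a window numbered 24 and 8 of them held the motif, against 1 (Trim2) of the 29 members under 1 TPM. Of the 8, Trim30a, Trim30d, Trim12a, Trim12c, Trim5 and Trim34a lie in a single run on chromosome 7, and some of their windows are near copies. These matches are therefore not independent, and the split by level was not made for all genes. The windows of Trim30a (chr7:104465144-104465443), Trim30d (chr7:104507800-104508099), Trim12a (chr7:104315446-104315745), Trim12c (chr7:104353300-104353599), Trim5 (chr7:104288057-104288356) and Trim21 (chr7:102565433-102565732) are on the minus strand, and those of Trim34a (chr7:104244207-104244506) and Trim26 (chr17:36836896-36837195) are on the plus strand. In the stretches, written 5′ to 3′ on the strand of the gene, capitals mark the first match, which reads as TTTC NN TTTC where it lies on the opposite strand.
Trim30a: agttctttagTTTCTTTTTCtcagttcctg
Trim30d: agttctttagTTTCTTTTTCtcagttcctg
Trim12a: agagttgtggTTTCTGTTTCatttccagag
Trim5: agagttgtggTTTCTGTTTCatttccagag
Trim12c: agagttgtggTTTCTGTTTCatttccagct
Trim34a: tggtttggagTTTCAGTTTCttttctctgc
Trim21: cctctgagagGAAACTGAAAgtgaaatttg
Trim26: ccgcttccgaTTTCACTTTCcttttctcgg

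The stretch was identical in Trim30a and Trim30d, and identical in Trim12a and Trim5. Trim21 and Trim26 each held 2 overlapping matches. The match began 36 bases before the start in Trim30a, 41 in Trim30d, 49 in Trim5, 29 in Trim12c and 160 in Trim26. In Trim12a, Trim34a and Trim21 it lay just after the start. Over the whole windows, Trim30a and Trim30d were identical in 90.8% of aligned columns, and Trim5 and Trim12c in 82.5%. Trim5 and Trim12a gave 67.1%, or 241 of 359 columns. Their windows share a long identical sequence at an offset set by the annotated starts, so percents and distances depend on those starts. Trim34a and Trim34b, close relatives in their transcripts, were identical in 47.8% of the columns, while Trim34a and Trim30c gave 51.3%. The letters of the motif were not in the windows of Trim25, Trim30c, Trim30b, Trim34b or Trim6; the Trim30b window lay 11238 bases from that gene's annotated start. The Trim2 window with the motif lay 94039 bases from the GENCODE start of its gene. A match is a string of letters and not a measured binding site. The motif GGGA NN TTCC, which NF-kappaB sites can match, was in the window of 1 member, Trim28, or 1.89% of members against 1.63% of all genes, and this window lay 25038 bases from the GENCODE start of Trim28. The motif TTC NNN GAA, which STAT sites can match, was in 6 members, or 11.3% against 9.55%.

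The SPRY class held most of the family's RNA. Its 36 members included 28 tested, of which 18 were above 1 TPM, 7 below and 3 on neither side, and together they made up 76.4% ± 1.62 of all TRIM TPM (SD, n = 4). Trim30a, which in mouse macrophages is known to restrain Toll-like receptor signalling by degrading TAB adaptors, led it. Its level was 122, 86.2, 110 and 149 TPM in replicates 1 to 4, above every other member in each library. The mean was 117 ± 26.0 TPM (SD, n = 4), and the limma test against 1 TPM gave an adjusted p of 1.5e-10. Trim30a alone accounted for 18.8% ± 1.33 of the family's TPM. The 5 highest members, Trim30a, Trim30d, Trim14, Trim25 and Trim12a, accounted for 51.0% ± 1.25.

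Trim30a belongs to a run of 10 members on chromosome 7, from 104218793 to 104507849, a stretch of 289 kb. In order along the chromosome they are Trim6, Trim34a, Trim5, Trim12a, Trim34b, Trim12c, Trim30b, Trim30c, Trim30a and Trim30d. The mouse run corresponds to the human region of TRIM5, whose product binds retroviral capsids in primates. These 10 genes held 49.8%, 47.2%, 46.7% and 50.1% of the family's TPM in replicates 1 to 4, a mean of 48.4% ± 1.76. The test placed 8 of them above 1 TPM, Trim34b below it and Trim6 on neither side.

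Within the run, neighbours differed widely. Trim30d, a paralogue of Trim30a, had 56.1, 44.9, 53.6 and 74.9 TPM in replicates 1 to 4, and none of these reached the lowest value of Trim30a. The ratio of Trim30a to Trim30d within a library was 2.04 ± 0.113 (SD, n = 4). Trim30c had 30.6, 25.4, 33.9 and 55.9 TPM, with its highest value in replicate 4. Trim30b was the lowest of the 4 Trim30 genes at 5.93 ± 2.74 TPM, and it too was highest in replicate 4, at 9.95 TPM against 3.92 to 5.29 in the others.

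The Trim5-like genes of the mouse also spread out. Trim12a had 38.7, 33.5, 34.0 and 44.5 TPM, Trim12c averaged 15.9 ± 2.73 TPM and Trim5 averaged 2.62 ± 0.0949 TPM (SD, n = 4). The 3 genes did not overlap, and within a library Trim12a stood at 14.4 ± 1.62 times Trim5. These levels take in all transcripts of a gene. In the first quantification coding transcripts made up 51.9% ± 1.22 of Trim12a, against 100% of Trim12c and of Trim5. Whether the 3 genes stay apart on coding transcripts alone was not tested. Trim5 shared 53.3% of its 31-base words with other genes, mostly Trim12c, and Trim12c shared 48.1%, so the division of reads between these genes is uncertain.

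Trim34a and Trim34b were furthest apart. Trim34a had 25.2, 23.3, 25.6 and 32.5 TPM, whereas Trim34b had 0.08, 0.10, 0.11 and 0.08 TPM, from 38.9 expected counts in all. The ratio of Trim34a to Trim34b was between 233 and 406 in the 4 libraries. The pair shares much sequence: 48.7% of the 31-base words of Trim34a occurred in Trim34b, and 69.0% of those of Trim34b in Trim34a, so the split rests on the reads that the authors' quantification could tell apart. An antisense gene, Gm47248, overlaps the end of Trim34a and holds 21.4% of its words, and whether strand was used is not given in the sources used here. Trim6, known in human cells for building unanchored ubiquitin chains in interferon signalling, had 0.67, 0.80, 0.75 and 1.16 TPM, on both sides of 1 TPM.

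**Figure D2:**
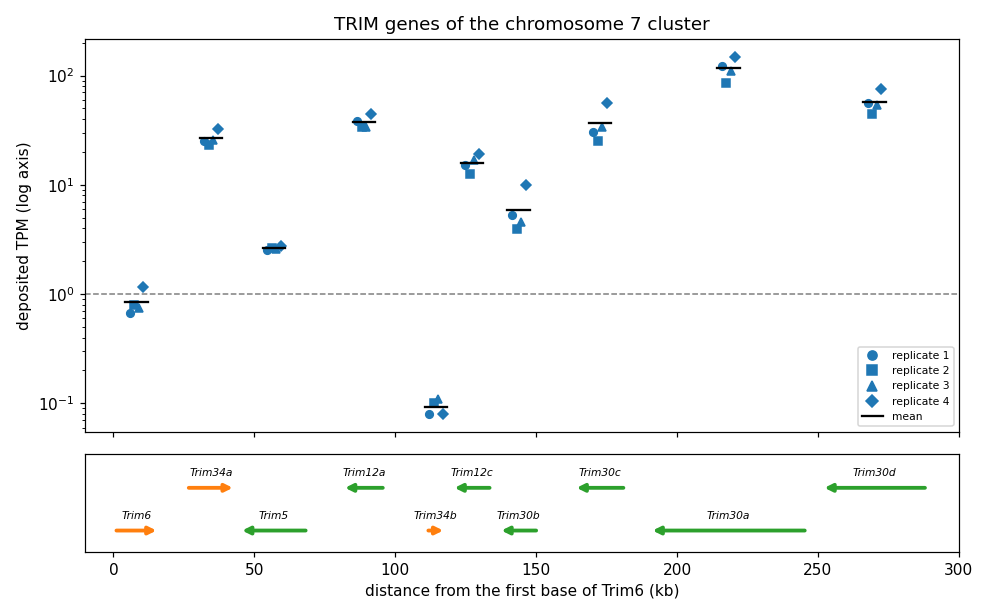
Deposited TPM (log axis) of the 10 TRIM genes of the chromosome 7 run by distance from the first base of Trim6, with 1 marker for each library, a bar at the mean and, below, each gene's span with an arrow in its direction of transcription. Trim34b, near 0.1 TPM, lies between Trim12a and Trim12c, both above 10 TPM.

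Members that act on nucleic acid sensing lay across the range. Trim25, an E3 ligase for the RNA sensor RIG-I and a cofactor of the antiviral protein ZAP, had 39.9, 42.9, 49.3 and 73.9 TPM, a mean of 51.5 ± 15.4 with the highest value in replicate 4. Trim14, which lacks a RING finger and acts at the adaptor MAVS, had 49.9, 41.0, 53.2 and 65.7 TPM. The order of Trim14 and Trim25 changed between libraries, each being higher in 2 of 4. Trim14 shares 36.4% of its words with other genes, chiefly the neighbouring gene Nans at 30.4%. Trim21, a cytosolic antibody receptor, averaged 24.9 ± 7.28 TPM, and Trim26, which has been tied to the turnover of IRF3, averaged 21.02 ± 5.16 TPM. Trim56, which acts on cGAS and STING, averaged 6.24 ± 1.05 TPM. Trim65, a ligase of MDA5, averaged 4.36 ± 0.529 TPM, Trim13, a ligase of the endoplasmic reticulum, 2.15 ± 0.401 TPM and Trim32, another STING ligase, 2.09 ± 0.273 TPM. Trim68 was at 0.75 ± 0.0804 TPM and was called on neither side of 1 TPM (limma, adjusted p = 0.0562 for below). Trim38, which is known to regulate Toll-like receptor adaptors, had 1 count over the 4 libraries.

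Other SPRY members above 1 TPM were Trim35 at 28.7 ± 4.60 TPM, Trim41 at 16.9 ± 2.91 TPM, Trim27 at 13.5 ± 1.85 TPM, Trim11 at 5.20 ± 0.604 TPM, Trim47 at 2.22 ± 0.459 TPM and Trim39 at 1.76 ± 0.228 TPM. Trim39 was the lowest member above 1 TPM (limma, adjusted p = 6.5e-04). Trim47 and Trim65 overlap on the same strand of chromosome 11, and Trim47 was highest in replicate 1. On chromosome 17, Trim26 is followed by Trim15, Trim10, Trim40 and Trim31. Trim15, 1.29 kb from Trim26, was at 0.035 TPM, and the other 3 had 0 counts in each library.

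All 3 members of the chromatin class, which carry a PHD finger and a bromodomain, were above 1 TPM. Trim28, or KAP1, the corepressor of KRAB zinc finger proteins, had 24.7, 19.2, 31.8 and 23.9 TPM, with its highest value in replicate 3. Trim33, which binds SMAD proteins, averaged 4.95 ± 0.507 TPM and Trim24, a nuclear receptor cofactor, 2.40 ± 0.139 TPM. Trim33 exceeded Trim24 in each library without overlap. The ratio of Trim28 to Trim33 was 5.05 ± 1.08 within a library. This ratio takes in all transcripts of both genes. In the first quantification coding transcripts made up 41.3% of Trim28, against 96.0% of Trim33. The coding transcript Trim28-201 averaged 10.2 TPM there, above the 4.95 TPM of all Trim33 transcripts. The ratio on coding transcripts alone was not tested.

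Members of other classes were above 1 TPM as well. Trim8, which modifies TAK1 signalling, averaged 25.4 ± 4.05 TPM. Trim44, which lacks a RING finger, averaged 9.16 ± 1.37 TPM. Trim3 averaged 4.76 ± 0.971 TPM, Trim23, which carries a GTPase domain, 3.12 ± 0.399 TPM, and Trim37, a peroxisome and centriole regulator, 3.00 ± 0.236 TPM. Trim59, a membrane protein, had 1.24, 0.88, 0.83 and 1.18 TPM and was called on neither side. Trim36 at 1.03 ± 0.173 TPM and the SPRY member Trim62 at 0.943 ± 0.231 TPM were also on neither side, as were Trim6 and Trim68.

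Below 1 TPM, the highest members were Trim16, which acts in autophagy and lacks a RING finger, at 0.713 ± 0.123 TPM, Trim2 at 0.673 ± 0.109 TPM, Trim45 at 0.528 ± 0.0519 TPM and Trim7, known as a glycogenin-binding protein, at 0.435 ± 0.0551 TPM. The call of Trim16 was lost without replicate 1, 3 or 4 and that of Trim2 without replicate 2 or 3, and all 4 genes were over 1 TPM after rescaling to protein-coding genes. The other 9 members below were at 0.335 TPM (Trim46) or less. Among them Trim43b and Trim43c, copies that share 64.6% and 71.8% of their 31-base words with other genes, were at 0.04 and 0.035 TPM, and Trim29, known from epithelia and lung macrophages, at 0.03 TPM.

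Several members known from muscle, brain and germ cells had few or no counts, while Trim3, first known from brain, and Trim32, mutated in a human muscular dystrophy, were above 1 TPM. Trim63, Trim54 and Trim55, the muscle ring finger ligases, had 0, 0 and 1 counts over the 4 libraries, and Trim72, which patches muscle membranes, had 2. Trim9 of neurons had 0 counts and Trim67 had 1. Trim46, which organizes axonal microtubules, was below 1 TPM at 0.11, 0.46, 0.12 and 0.65 TPM, with replicates 2 and 4 high and replicates 1 and 3 low. Trim71, a stem cell factor, Trim58 and Trim10, both known from red cell precursors, and Trim42 of testis had 0 counts in each library. The 12 members with 0 counts could have gone unseen at up to 0.00642 TPM (Trim71) to 0.0658 TPM (Trim40), the value of 3 counts in the library with the weakest limit. These limits cover counting error only, and for the first quantification. Trim52, with a limit of 0.0366 TPM, had 55.7 estimated counts in all in the second quantification. Its values there were 0.0224, 0.517, 0.135 and 0.0841 TPM as deposited. TPM scales differ between the quantifications, so the limit does not carry over to these values. The other 8 untested members had 1 to 7 counts. Of the marker lists, all 10 macrophage markers were above 1 TPM as deposited, and no muscle, germ cell, lymphocyte, fibroblast or neuron marker was. Rescaled to protein-coding genes, the germ cell marker Ddx4 averaged 1.64 TPM and the muscle marker Tnni3 1.59 TPM. The 8 neutrophil markers, 1 of which was above 1 TPM, summed to 2.57 to 4.01 TPM per library, against 4154 to 6373 TPM for the macrophage markers. In such bulk RNA, fewer cells of a type and less RNA per cell cannot be told apart.

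The order of levels was settled for few neighbours. Among the 32 members of at least 1 TPM, ranked by mean, 26 of 31 neighbouring pairs had ranges that overlapped between libraries. The 5 pairs without overlap were Trim30a over Trim30d, Trim27 over Trim44, Trim65 over Trim23, Trim5 over Trim24 and Trim39 over Trim59. In 12 pairs the order was the same in all 4 libraries.

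The family's summed TPM was 596, 494, 604 and 777 in replicates 1 to 4. Replicate 4 was the highest library for 22 of the 32 members and replicate 2 the lowest for 21. These are also the libraries in which protein-coding genes took the largest and the smallest part of all TPM, 36.6% in replicate 4 and 25.3% in replicate 2, against 31.7% in replicate 1 and 30.0% in replicate 3. Most of the remainder was 7SL RNA, the RNA of the signal recognition particle, at 55.9% to 65.6% of TPM. After each library was rescaled to its protein-coding genes, the family summed to 1879, 1953, 2016 and 2121 TPM. On that scale replicates 1 to 4 were highest for 5, 9, 9 and 9 members. Replicate 1 was then the lowest for 16 members and replicate 2 for 2. Such tallies were not made for all genes. The median coefficient of variation of the 32 members was 11.5% rescaled and 16.9% as deposited, and it was smaller after rescaling for 24 of 32.

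**Figure D3:**
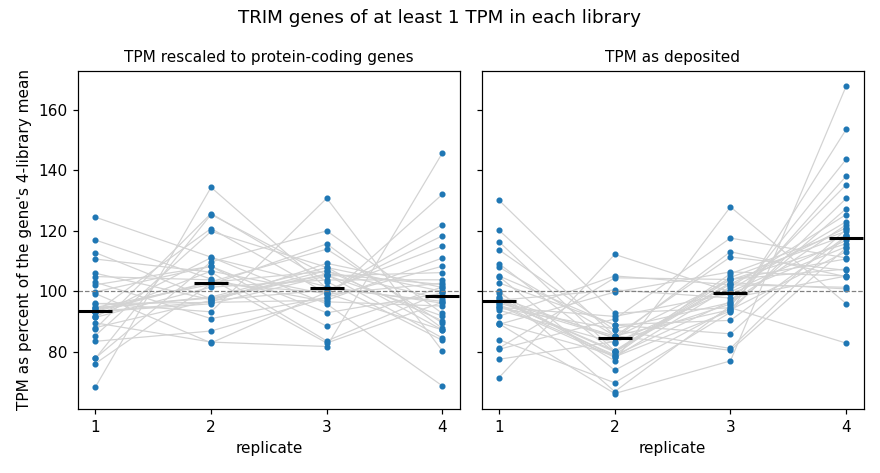
TPM of the 32 TRIM genes of at least 1 TPM, as percent of each gene's mean over the 4 libraries, rescaled to protein-coding genes (left) and as deposited (right). Each point is a gene, grey lines join its values and black bars are medians, with replicate 4 highest and replicate 2 lowest for most genes as deposited.

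Spread between replicates differed among members. Of the 32 members of at least 1 TPM, those with the largest coefficients of variation as deposited were Trim30b at 46.2%, Trim30c at 36.9%, Trim25 at 30.0%, Trim21 at 29.3% and Trim26 at 24.5%. The smallest among these 32 were Trim5 at 3.62%, Trim24 at 5.78%, Trim37 at 7.88%, Trim33 at 10.2% and Trim11 at 11.6%. After rescaling, Trim30b stood at 30.7% and Trim5 at 14.6%, which is above the members' median. The smallest after rescaling were Trim56 at 4.91%, Trim23 at 4.96% and Trim8 at 5.69%. The biological coefficient of variation from edgeR, estimated on the rounded expected counts, had a median of 0.144 over the 32 members, against 0.153 over the 10026 genes of at least 1 TPM. It ran from 0.114 for Trim33 to 0.245 for Trim47.

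Each gene's TPM was divided between its annotated transcripts in both quantifications. The leading transcript was the same in both quantifications for 30 of the 32 members, and it was protein-coding in 31 in the first. These counts were not made for all genes, so they do not set the family apart. The exception was Trim30b, whose leading transcript, Trim30b-202, is annotated as a retained intron. It took 68.9% ± 11.2 of the gene's transcript TPM in the second quantification and 79.0% ± 8.09 in the first, so protein-coding transcripts of Trim30b made up 23.7% ± 10.5 in the second and 19.2% ± 6.79 in the first (SD, n = 4). Most of the TPM of Trim30b was thus assigned to transcripts not annotated as coding.

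Trim28 and Trim12a also had much of their TPM assigned to transcripts not annotated as coding. Coding transcripts made up 50.1% ± 7.04 of Trim28 in the second quantification and 41.3% ± 4.56 in the first, the retained-intron transcript Trim28-203 taking 22.3% in the second and 39.6% in the first. For Trim12a the coding part was 58.8% ± 4.82 in the second and 51.9% ± 1.22 in the first, and the short transcript Trim12a-206, which has no annotated reading frame, took 37.1% in the second and 45.5% in the first. Trim30a, in contrast, came as a single coding transcript, Trim30a-201, at 97.7% ± 2.17 in the second and 99.7% ± 0.263 in the first. Trim30d was divided between coding transcripts Trim30d-202 at 57.4% ± 1.66 and Trim30d-201 at 42.5% ± 1.63 in the first quantification. Trim39-203 varied most, at 85.9%, 17.5%, 20.2% and 59.3% of Trim39 in replicates 1 to 4 of the first quantification. Trim39-201 was at 0%, 47.0%, 54.1% and 20.1% in the same libraries.

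**Figure D4:**
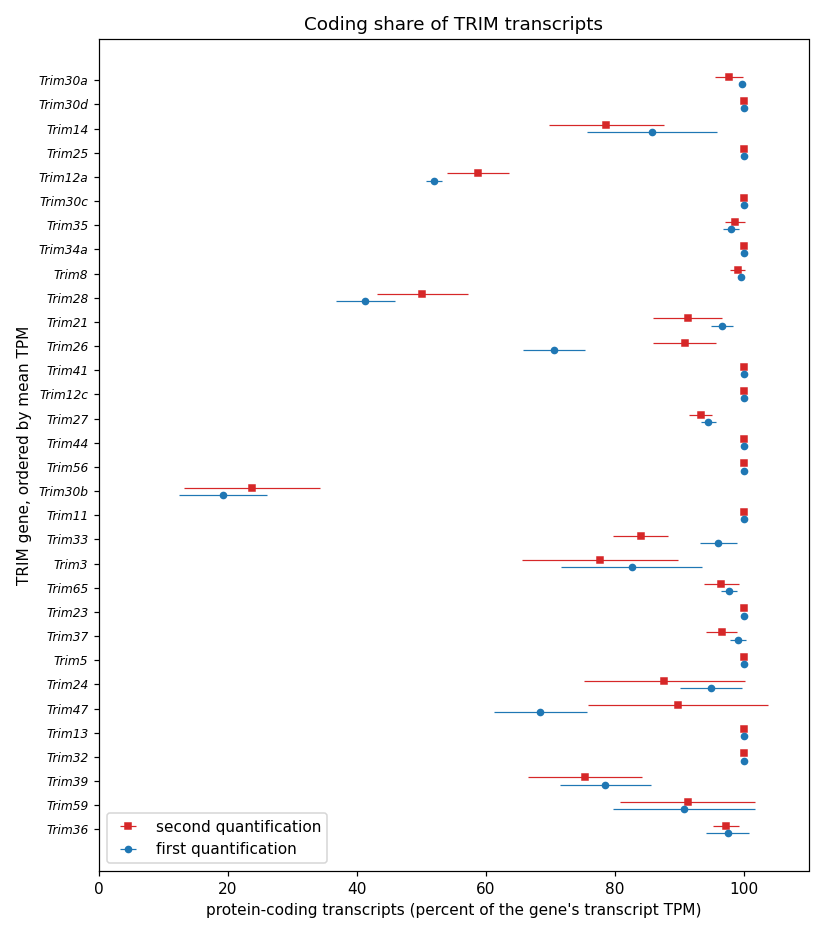
Share of each gene's transcript TPM in protein-coding transcripts, in the second (squares) and first (circles) quantification, for the 32 TRIM genes of at least 1 TPM (mean and SD of 4 libraries). Trim30b, Trim28 and Trim12a stand lowest, at 23.7%, 50.1% and 58.8% in the second quantification.

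Gene levels were then compared between the quantifications, both rescaled to protein-coding genes, for the 41 members of at least 1 TPM in either. By limma's treat test for a log2 difference beyond 1, 0 of 41 members were higher and 0 were lower in the second, against 3.31% higher and 0.956% lower of all 14119 genes compared, and 0.697% and 0.266% of the protein-coding genes. At an unadjusted p below 0.05, 1 member passed. The median log2 difference, second minus first, was 0.03 for members and 0.05 for all genes, and 39 of 41 members lay within 0.3. The counts at an unadjusted p and within 0.3 were not made for all genes. Beyond 0.3 were Trim52 and Trim6, named here after their values were seen. Trim52 had 0.160, 4.63, 1.52 and 0.767 rescaled TPM in the second quantification and 0 in each library of the first (limma treat, adjusted p = 0.283). Trim6 had 2.87, 4.54, 3.52 and 4.39 rescaled TPM in the second and 2.11, 3.16, 2.503 and 3.17 in the first, higher in 4 of 4 libraries, with a log2 difference of 0.47 ± 0.02 (SE). At the other end, Trim28 was lower in the second by a log2 difference of -0.30 ± 0.02.

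**Figure D5:**
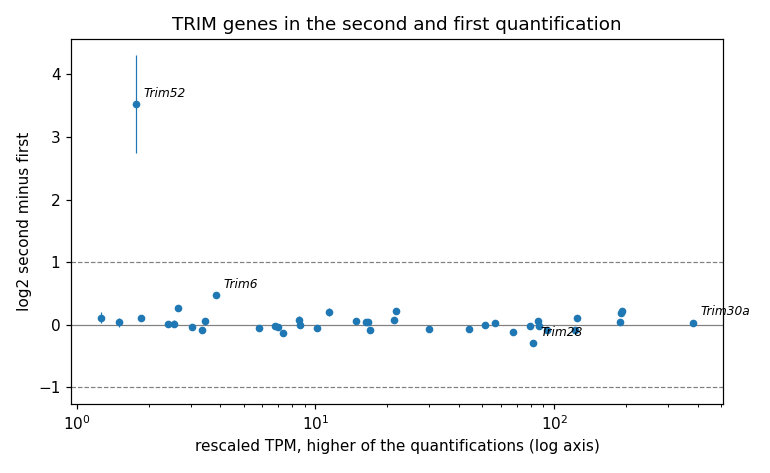
Log2 difference, second minus first quantification, of 41 TRIM genes against the higher of their rescaled TPM (log axis); points are limma estimates with standard errors and dashed lines mark differences of 1 and -1. Trim52 alone lies beyond the dashed lines, at 3.52.

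The partners of TRIM ligases were measured as well. Of 19 ubiquitin-activating (E1) and conjugating (E2) enzymes, 18 were above 1 TPM and 0 below, and Ube2e2 at 0.763 ± 0.375 TPM was on neither side. Ube2d3, of the E2 group that most RING ligases use, had 136 ± 28.7 TPM, Ube2l6, the E2 of ISG15, 112 ± 24.6 TPM, and Ube2l3 89.8 ± 18.1 TPM. Of 22 measured sensors and adaptors that TRIM proteins bind or modify, 22 were above 1 TPM, led by Irf7 at 804 ± 256 TPM, Zbp1 at 185 ± 43.3 TPM and Ddx58, the gene of RIG-I, at 105 ± 29.0 TPM. Of 12 TRIM-related genes with other symbols, 3 were above 1 TPM, Pml at 35.0 ± 9.23 TPM, Mid1 at 20.8 ± 8.41 TPM and Mefv, the gene of pyrin, at 3.42 ± 1.51 TPM, while 4 were below and 5 were not tested. Of the genes tested, 58.2% of all genes and 71.2% of protein-coding genes were above 1 TPM. Those shares are of tested genes, whereas the 12 TRIM-related genes include the 5 not tested.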

How the data were processed

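Total RNA-seq libraries of the cytosolic fraction, depleted of ribosomal RNA, were made from 4 samples of 1 group. Per the file headers, the authors' gene tables give expected counts, TPM and posterior means of both for each library, and the second set of transcript tables gives estimated counts and TPM. The other column deposited by the authors and used here, the posterior standard deviation of a count, is described in the file headers only by its name. Per the deposited library notes, reads were quantified against mm10 and annotation M21; which aligner and tools were used is not given in the sources used here. Expected counts summed to 30660511, 36681241, 48223718 and 42785115 in replicates 1 to 4.

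Levels were tested with limma 3.58.1 (intercept only, variance trend) on log2(TPM + 0.1), and quantifications were compared with its treat test. The threshold was 0.05 after Benjamini-Hochberg adjustment across every gene tested. Expected counts were rounded for edgeR 4.0.16 dispersions (TMM scaling), and DESeq2 1.42.0 gave alternatives. Shared sequence was the share of a gene's 31-base words found in transcripts of other genes. Expected counts of 12 members were not whole within 0.005. Promoter windows were aligned with Biopython. The level and quantification tests were tested on simulated data. Alternatives changed the pseudocount, the filter, the scaling, the quantification and the replicates used. Members and lists were chosen with earlier results of these data known. Named genes were the 15 highest members, family members listed by known role, the 5 most and 5 least variable, those called on neither side and the leading genes of each list. Protein sequences were not analysed here.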

Additional observations from a re-analysis of the deposited data

Results flagged for a closer look

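In 3 of the 48 tested members, 1 library stood far from the other 3 by the gap over the range. Chance gives such a gap in about 1 group in 20. Trim43c was at 0.09 TPM in replicate 2, against 0.01 to 0.02 TPM in the others, Trim15 at 0.1 TPM in replicate 2, against 0.01 to 0.02 TPM, and Trim66 at 0.02 TPM in replicate 3, against 0.01 TPM in each of the others. The counts of Trim66 were 4, 8, 8 and 6 in replicates 1 to 4, so replicate 3 equalled replicate 2, and its gap arises from TPM given to 0.01; the chance value does not apply to it. All 3 values come from few counts, 17.4, 16 and 26 in total over the 4 libraries.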

How the results depend on the processing

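No paired analysis was possible because the libraries form a single group. The count of members above 1 TPM was 30 under either other pseudocount, with other count filters, with posterior means and without any single replicate, 39 after rescaling to protein-coding genes, 22 in the second quantification as deposited and 38 in it rescaled. The count below was 34 with no filter, where members at 0 enter, 6 with summed counts of at least 40, where fewer genes are tested, 8 after rescaling, 20 in the second quantification as deposited and 6 in it rescaled, and 9 to 11 without a replicate. With posterior means, 44 members kept their call, 2 lost it while staying on the same side of 1 TPM, and 2 changed sides. Rescaling multiplies each library by 2.73 to 3.95 and so moves genes past 1 TPM: Trim2 at 2.18, Trim45 at 1.73, Trim7 at 1.44, Trim62 at 3.03, Trim16 at 2.37, Trim6 at 2.74 and Trim68 at 2.495 TPM turned to the upper side, and in the rescaled second quantification they were at 2.65, 1.87, 1.51, 2.95, 2.42, 3.83 and 2.55 TPM. Ube2e2 turned at 2.39 and 4.74 TPM, and at 1.73 with posterior means, where Trim2 was at 1.135 and Trim6 at 1.10 TPM. In the second quantification as deposited, Trim47 at 0.764, Trim24 at 0.945, Trim36 at 0.383, Trim59 at 0.357, Trim13 at 0.773, Trim39 at 0.618, Trim32 at 0.742 and Trim5 at 0.955 TPM turned to the lower side. Leaving out a replicate turned Trim36 to 0.947 TPM (without replicate 4; its range was 0.947 to 1.08), Trim59 to 0.963 and 0.983 TPM (without replicates 1 and 4) and Trim62 to 1.05 TPM (without replicate 2; its range was 0.863 to 1.05). Trim16 lost its call without replicate 1, 3 or 4, and Trim2 without replicate 2 or 3.

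Comparing quantifications as deposited moved the median of all genes by -1.40 (log2), and 1 member was then lower in the second; the count higher was 0 in every setting run. The median biological coefficient of variation of the tested members was 0.167, 0.1003 with DESeq2's gene-wise dispersions, 0.194 with no filter, and 0.152 to 0.190 without a replicate; the cause was not tested. The share of Trim30a ran from 18.3% to 19.3% and that of the chromosome 7 run from 47.9% to 49.0% without a replicate. With 1 group and 4 libraries, no response to lipid A can be measured.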
